A study of Mus musculus with 4 samples.

Results

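The 6 actins of the mouse, which are Acta1, Acta2, Actb, Actc1, Actg1 and Actg2, were followed by gene symbol through the 4 RNA-seq libraries of the stiffness experiment. All 6 were among the 21862 genes listed once in each library, and 3 of them (Actg1, Actb and Acta2) had an FPKM (fragments divided by transcript length and by the number of mapped reads) above 2 in all 4 libraries, called the minimum here, as did 10489 genes in total. The cells were N31 NPCs, a mouse neural progenitor line made by differentiation of iPSCs, which carries Dox-inducible Oct4, Klf4, c-Myc and Sox2, a CAG-driven rtTA transgene and a blasticidin-resistance cassette in Oct4. They were cultured in NPC medium lacking bFGF and EGF, on matrices coated with collagen, of 0.5 kPa (soft) or 12 kPa (hard), either as N31 cells (control) or as N31 cells expressing a short hairpin RNA against Srf from an H1 retroviral vector (shSrf#1; knockdown). The study's methods do not state whether the control cells carried a control vector, and they describe puromycin selection of infected cells. With a single hairpin, effects of infection, selection or other targets of the hairpin cannot be told apart from loss of Srf. With a single library per condition, nothing here has a replicate check, no p-value is given, and the errors are those of read counting alone. Pairs of values are given as soft, then hard matrix.

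Actin is the subunit of the microfilaments and is encoded by 6 closely related genes in mammals. Actb and Actg1 encode the cytoplasmic β- and γ-actins, which almost every cell makes in quantity. Acta2 and Actg2 encode the α- and γ-actins of smooth muscle, Acta1 the α-actin of skeletal muscle and Actc1 the α-actin of cardiac muscle, and Acta2 is also the classical marker of myofibroblasts. Actin is tied to the serum response factor Srf in both directions: monomeric actin holds the Srf cofactor Mkl1 in the cytoplasm, and Srf binds with Mkl1 to the CArG box, a motif of 10 bases with a pair of C, 6 A or T and a pair of G. The comparison of hard with soft matrix asks how the actin genes differ between the stiffnesses. The comparison of Srf-knockdown with control cells asks how far each of them differs between cells with the Srf hairpin and cells without it.

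The 200 bases before the annotated start are shown for the 4 actins with a promoter in the RefSeq table used (GRCm38.p6), because the CArG box is the element through which Srf acts. Sequences run 5′ to 3′ in lower case, and capitals mark every CArG box and every site that differs from it at exactly 1 base.
Acta2 (chr19:34255374-34255573, minus strand): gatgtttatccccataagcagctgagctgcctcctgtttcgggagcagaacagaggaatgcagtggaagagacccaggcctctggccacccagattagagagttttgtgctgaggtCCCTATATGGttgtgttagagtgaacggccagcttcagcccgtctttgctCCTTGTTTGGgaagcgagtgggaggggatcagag
Actg1 (chr11:120348496-120348695, minus strand): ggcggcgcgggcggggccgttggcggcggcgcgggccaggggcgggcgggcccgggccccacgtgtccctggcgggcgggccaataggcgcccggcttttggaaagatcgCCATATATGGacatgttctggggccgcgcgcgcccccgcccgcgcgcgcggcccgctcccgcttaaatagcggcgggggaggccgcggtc
Acta1 (chr8:123894776-123894975, minus strand): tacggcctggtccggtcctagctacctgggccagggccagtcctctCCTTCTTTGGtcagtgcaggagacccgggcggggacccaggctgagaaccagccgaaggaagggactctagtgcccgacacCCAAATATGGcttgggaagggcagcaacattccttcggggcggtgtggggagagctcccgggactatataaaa
Actc1 (chr2:114052876-114053075, minus strand): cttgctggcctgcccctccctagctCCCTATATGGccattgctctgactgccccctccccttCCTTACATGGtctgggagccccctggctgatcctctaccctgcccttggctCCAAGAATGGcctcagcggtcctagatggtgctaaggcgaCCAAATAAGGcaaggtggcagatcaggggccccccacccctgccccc

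Acta2 had no exact CArG box in this window but a pair of sites with 1 mismatch, at 84 to 75 and at 34 to 25 bases before the annotated start. Actg1 had a single exact box, at 90 to 81 bases. Acta1 had an exact box at 73 to 64 bases and a site with 1 mismatch at 154 to 145 bases, and Actc1 had an exact box at 47 to 38 bases and 3 sites with 1 mismatch between 175 and 78 bases. The motif reads the same on both strands. Of 32851 promoter windows of this length, 1.18% held an exact box, 14.2% a site with exactly 1 mismatch, and 2.06% at least 2 sites of either kind. The window shown for Acta2 lies inside the RefSeq limits of the gene, which reach further upstream than the start in this table. A match describes the letters of the window and is not evidence of binding in these cells.

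Srf itself (chromosome 17 of GRCm38, 46546838 to 46558267) stood at 34.4 and 35.6 FPKM in the control libraries and at 16.2 and 17.4 in those of the knockdown. From the steps of 1 read among low FPKM values, the depth was put at 29100000 and 24100000 reads for control and at 45100000 and 62300000 reads for the knockdown. The median FPKM of the 10489 genes lay between 21.9 and 22.1 in the 4 libraries, so values were compared as deposited. Of the neural progenitor markers, Sox1, Hes5 and Olig2 were listed at 0 in all 4 libraries, and 6 were above an FPKM of 2 in all of them (Vim, Cdh2, Nes, Slc1a3, Sox2 and Pax6).

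These 6 split between control and knockdown. At both stiffnesses Vim, Sox2 and Pax6 were higher and Cdh2, Nes and Slc1a3 lower by more than 1.1-fold after knockdown. Of all genes, 37.4% were higher and 35.7% lower at 0.5 kPa, and 37.6% and 35.9% at 12 kPa. Both directions were thus about equally common among all genes too. Nes, an intermediate filament gene, went from 51.6 and 36.1 FPKM to 16.4 and 15.5 FPKM, and Slc1a3, a glutamate transporter gene, from 27.7 and 36.7 FPKM to 9.99 and 13.2 FPKM. Sox2, a transcription factor gene that the line also carries as a Dox-inducible transgene, went from 4.29 and 5.49 FPKM to 19.1 and 20.4 FPKM. The part of this split in the actin values was not tested.

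The cytoplasmic actins made up nearly all actin transcripts in every library. Actg1 (chromosome 11, 120345687 to 120348495) reached 2909 and 2917 FPKM in control, and 2567 and 2315 FPKM after knockdown. Actb (chromosome 5, 142903115 to 142907976) reached 2327 and 2331 FPKM in control, and 2300 and 2050 FPKM after knockdown. Both were thus nearly level between the control libraries, and both were lowest in knockdown cells on the hard matrix. Actg1 ranked 7th of the 21862 genes in both control libraries and 14th and 15th in the Srf-knockdown libraries, and Actb ranked 11th and 10th in control and 18th and 20th in knockdown cells.

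Acta2 (chromosome 19, 34240336 to 34255585) was the most abundant muscle actin, and its level separated control from knockdown cells. Control cells held 321 and 322 FPKM of it, where it ranked 301st and 293rd. Knockdown cells held 6.74 and 8.96 FPKM. The knockdown values rest on about 480 and 882 reads. In a bulk measurement, fewer cells that express Acta2 and less Acta2 RNA per cell cannot be told apart. Actg2 (chromosome 6, 83512909 to 83536251), the other smooth muscle actin, stood far lower but showed the same split, at 8.61 and 9.13 FPKM against 0.682 and 0.339 FPKM in the knockdown. The latter values rest on about 34.8 and 23.9 reads.

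The sarcomeric actins were close to the limit of detection. Acta1 (chromosome 8, 123891758 to 123894775) gave 0.193 and 0.616 FPKM in control, from about 7.0 and 18.5 reads. After knockdown it was listed at 0 on the soft matrix, where 3 reads would give 0.0534 FPKM, and gave 0.0393 FPKM on the hard matrix, from about 3.05 reads. Actc1 (chromosome 2, 114047282 to 114052875) gave 0.0540 and 0.0977 FPKM in control and 0.0523 FPKM in knockdown cells on the soft matrix, and was listed at 0 in the fourth library. These are about 2.0, 3.0, 3.0 and 0 reads, so no difference of Actc1 between libraries was detectable at this depth. The order of levels in both control libraries was Actg1, Actb, Acta2, Actg2, Acta1 and Actc1, and the first 4 kept this order in both Srf-knockdown libraries. Each of these 4 differed from its neighbours by more than counting error, whereas the 95% counting intervals of Acta1 and Actc1 in control cells on the soft matrix overlapped (2.82 to 14.4 reads and 0.242 to 7.23 reads).

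**Figure D1:**
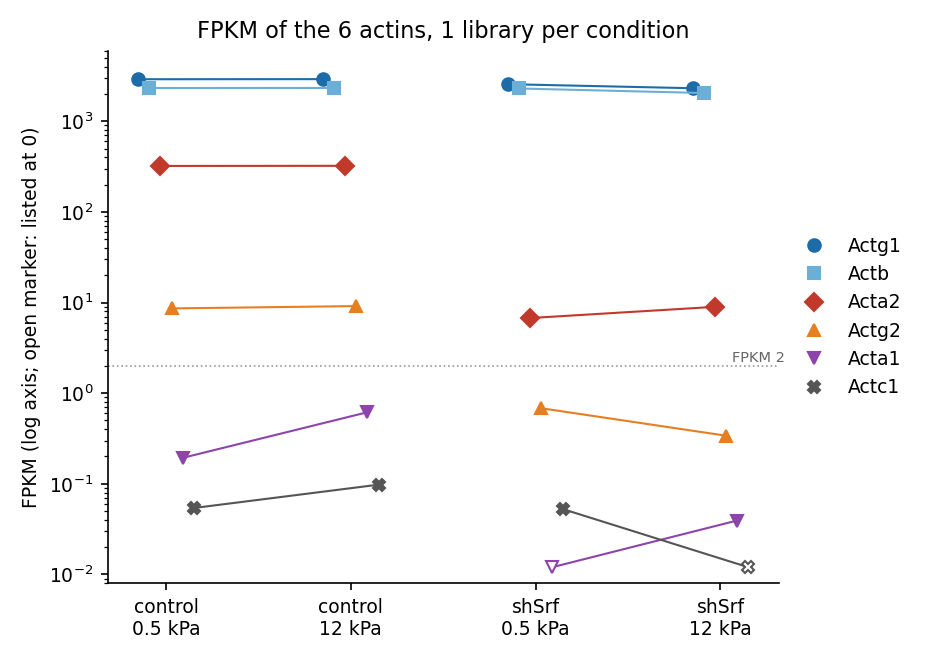
FPKM of each actin (log axis) in the 4 libraries, with 1 point for each library, lines joining the 2 stiffnesses of a population and open markers for values listed at 0. Actg1 and Actb stay between 2050 and 2917, while Acta2 goes from 321 and 322 in control to 6.74 and 8.96 in knockdown cells, and Actg2 falls below an FPKM of 2.

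At 0.5 kPa, knockdown cells had 47.7-fold less Acta2 than control cells and 12.6-fold less Actg2, with Actg1 1.13-fold lower and Actb within 1.1-fold. The log2 ratio of FPKM in Srf-knockdown to control cells was -5.58 for Acta2, with a counting error of 0.0669. It was -3.66 for Actg2, where the counting interval of the fold runs from 8.82 to 18.4. For Actg1 it was -0.18 and for Actb -0.02. Of the 3 actins above the minimum in all libraries, 2 were lower by more than 1.1-fold, as were 35.7% of all genes, and 1 was lower by more than 2-fold, as were 2.86%. Their median log2 ratio was -0.18, and that of all genes was 0.0106. The share of all genes lower by 1.1-fold was thus large, and 31.7% of them had a lower ratio than Actg1, whereas no gene among the 10489 had a lower ratio than Acta2.

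At 12 kPa the same pattern was seen, and both cytoplasmic actins were lower as well. Acta2 was 36-fold lower in knockdown cells (log2 ratio -5.17, counting error 0.0503) and Actg2 26.9-fold lower (log2 ratio -4.75, counting interval of the fold from 17.7 to 42.8). Acta1 was 15.7-fold lower, with a counting interval from 4.82 to 86.3 that shows how few reads it rests on. Actg1 had a log2 ratio of -0.33 and Actb of -0.19. All 3 actins above the minimum were lower by more than 1.1-fold, as were 35.9% of all genes, and 1 of them by more than 2-fold, as were 2.22%. Acta2 again had the lowest ratio of the 10489 genes. Actg1 had a lower ratio than Actb at both stiffnesses, and 20.9% of genes lay below Actg1 at 12 kPa against 31.9% below Actb.

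The minimum in all libraries removes genes that nearly vanish in knockdown cells, Actg2 among them. Among the 10730 genes with an FPKM above 2 in both control libraries, whatever their level in knockdown cells, only Cnn1, the calponin of smooth muscle, had a lower ratio than Acta2, at both stiffnesses. Cnn1 fell from 95 and 76.1 FPKM to 0.795 and 1.32 FPKM. Actg2 had the 10th lowest ratio of these genes at 0.5 kPa and the 3rd lowest at 12 kPa, where only Acta2 and Cnn1 lay below it.

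**Figure D2:**
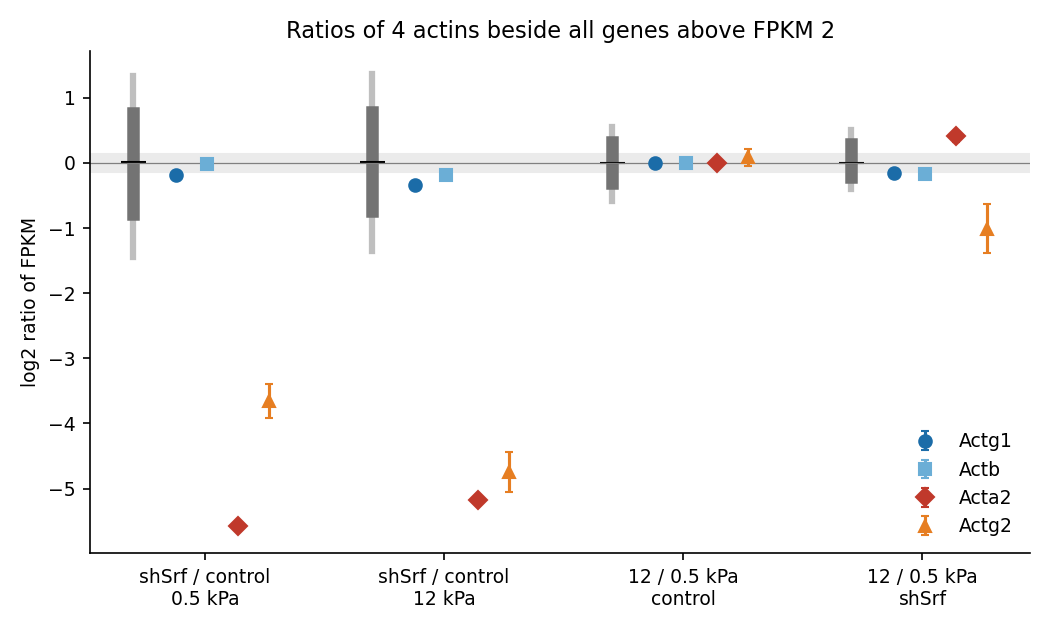
The log2 ratio of FPKM of 4 actins in the 4 comparisons, with counting errors as bars, beside the 1st to 99th (light grey) and 5th to 95th (dark grey) percentiles of the genes above an FPKM of 2. The pale band marks 1.1-fold. Acta2 and Actg2 lie far below the grey bars in both comparisons of Srf-knockdown with control cells, and Acta2, Actg1 and Actb lie at 0 between the stiffnesses in control cells.

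The abundant actins were level between the stiffnesses in control cells. The log2 ratio of the 12 to the 0.5 kPa library was 0.0048 for Acta2, 0.0039 for Actg1 and 0.0027 for Actb, with counting errors of 0.0176, 0.0056 and 0.0063. None of the 3 passed 1.1-fold, and 65.3% of all genes stayed within it. These ratios are smaller than their counting errors, and the median log2 ratio of all genes was 0.00305. Actg2 had a ratio of 0.09, and its counting interval runs from -0.16 to 0.34. The reading for Acta1 was 3.19-fold higher on the 12 kPa matrix, with a counting interval of the fold from 1.32 to 9.22, at a level far below the minimum. By quantitative PCR normalized to Gapdh, the paper reports that Srf targets such as Acta2 rose with stiffness in NPCs. Why the Acta2 values of these libraries differ from that result was not tested.

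In knockdown cells the cytoplasmic actins were lower and Acta2 was higher on the 12 kPa matrix. The log2 ratio of 12 to 0.5 kPa was -0.17 for Actb and -0.15 for Actg1, and 0.41 for Acta2 with a counting error of 0.0818. Of the 3 actins above the minimum, 2 were lower by more than 1.1-fold, as were 13% of all genes, and 1 was higher, as were 17.6%. In this comparison 9.58% of genes lay below Actb, 11.5% below Actg1 and 97.9% below Acta2. Actg2 went the other way from Acta2, with a log2 ratio of -1.01, but its counting interval runs from -1.83 to -0.22 at an FPKM below 1. At 8.96 FPKM, Acta2 in knockdown cells on the hard matrix was still far below the 322 FPKM of control cells.

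Because FPKM is per length, the isoforms can also be read as shares of all actin transcripts within a library, and such shares do not depend on how the library was scaled. Added together, the 6 actins came to 5566 and 5580 FPKM in control, and to 4874 and 4374 FPKM after knockdown. On the soft matrix total actin decreased by 12.4% with the knockdown, and on the hard matrix it decreased by 21.6%. The log2 ratio at 0.5 kPa was -0.19 as deposited and -0.30 after division by Gapdh. Gapdh itself was higher in knockdown cells, at 1072 and 1070 FPKM against 991 and 992 FPKM in control. The sum of the muscle actins decreased by 323 FPKM at each stiffness, while that of the cytoplasmic actins decreased by 369 FPKM on the soft matrix and decreased by 883 FPKM on the hard matrix. The 4 muscle actins held 5.93% and 5.96% of total actin in control cells, and 0.153% and 0.213% in knockdown cells.

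Actg1 kept its share, with 52.3% in both control libraries and 52.7% and 52.9% in the Srf-knockdown libraries. The share of Actb was 41.8% in both control libraries and 47.2% and 46.9% in the Srf-knockdown libraries. Acta2 held 5.77% and 5.78% in control and 0.138% and 0.205% in knockdown cells. The ratio of Actg1 to Actb was 1.25 in both control libraries, and 1.12 and 1.13 in the Srf-knockdown libraries. The ratio of Acta2 to Actg2 was 37.3 and 35.3 in control cells and 9.89 and 26.4 in knockdown cells. Taken against Gapdh, the glycolytic enzyme commonly used as a reference gene, Actb stood at 2.35 in both control libraries and at 2.14 and 1.92 in the Srf-knockdown libraries.

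**Figure D3:**
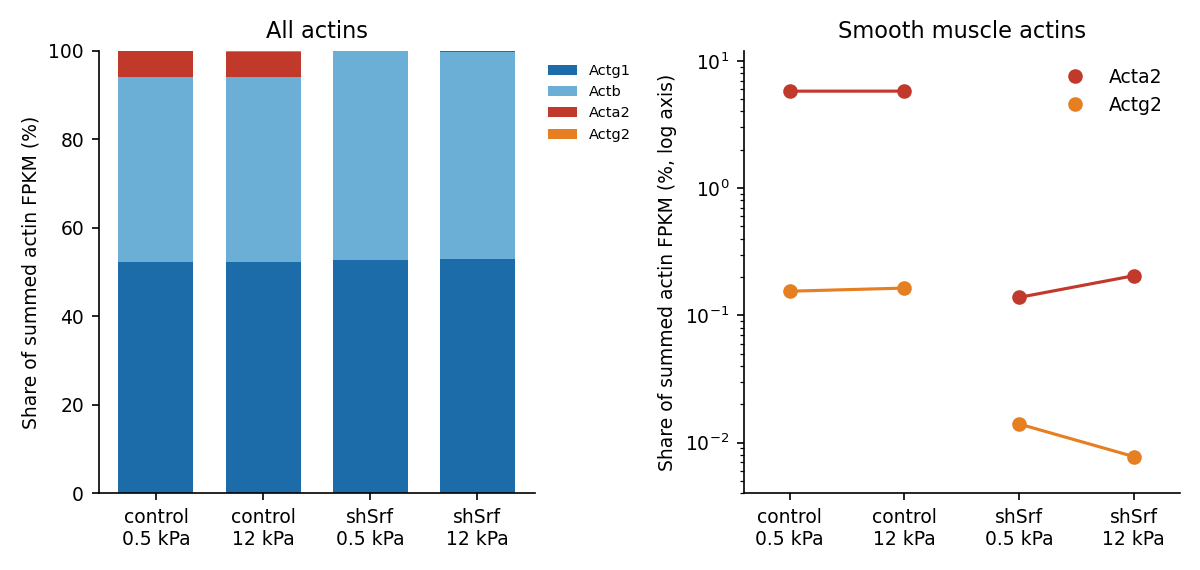
Shares of the summed actin FPKM in each library, as stacked bars from 0 to 100% (left) and for the smooth muscle actins on a log axis (right). Actg1 holds 52.3% to 52.9% throughout, and the Acta2 share goes from 5.77% and 5.78% to 0.138% and 0.205%.

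How far the isoforms can be told apart by their reads was examined on the reference transcripts of NCBIM37, an earlier build than the mm10 used by the authors. The coding sequences of the 6 genes shared between 81.5% and 88.7% of their bases in pairs, with the highest value for Actb and Actg1. Of the windows of 64 nucleotides along each transcript, 95.9% of those of Actg1 also occurred without a mismatch elsewhere in the genome, at up to 6 places. The same held for 7.05% of the windows of Actb, 1.23% of those of Acta1, and none of those of Acta2, Actg2 and Actc1. The authors kept only reads with a high mapping quality, and the part of this filter in the level of Actg1, and so in its ratio to Actb, was not tested.

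**Figure D4:**
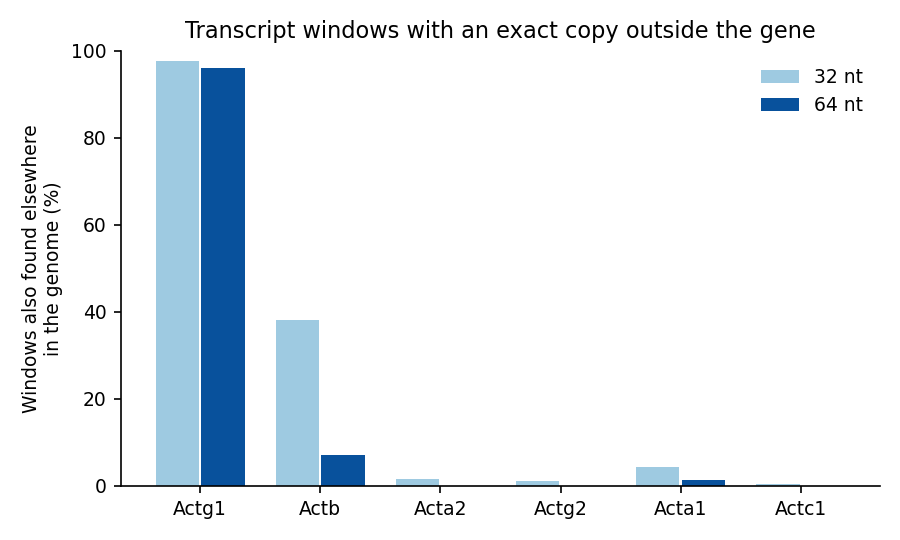
Percentage of windows of 32 and 64 nucleotides along each actin transcript that also occur elsewhere in the genome without a mismatch. Actg1 stands at 97.6% and 95.9% and Actb at 38.2% and 7.05%, and the muscle actins stay at or below 4.24%.

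The actin-related proteins, which share the actin fold but do not form microfilaments of their own, moved less than the smooth muscle actins. Of 20 such genes, 9 were above the minimum, and none of them passed 2-fold between knockdown and control. Of all genes, 2.86% at 0.5 kPa and 2.22% at 12 kPa were lower by more than 2-fold, so none lower among 9 is near these shares. Of the 9, 5 were lower and 1 higher by more than 1.1-fold at 0.5 kPa, where 35.7% of all genes were lower and 37.4% higher. At 12 kPa 7 were lower and 1 higher, where 35.9% of all genes were lower and 37.6% higher. The median log2 ratio of the 9 was -0.16 and -0.17, against 0.0106 and 0.00981 for all genes. Actr2 went from 125 and 120 FPKM to 65.5 and 62.7 FPKM with the knockdown, and Actr3 from 269 and 272 FPKM to 201 and 194 FPKM. Both are subunits of the Arp2/3 complex, which nucleates branched filaments. Actr5, a subunit of a chromatin remodeler, was the gene that was higher, at 3.84 and 4.96 FPKM in control and 6.14 and 7.71 FPKM after knockdown.

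Actin is folded by the chaperonin CCT with its partner prefoldin, and all 14 listed genes of this group were above the minimum and within 2-fold of control in the knockdown. For this and the next 2 lists, the shares of all genes past 1.1-fold were 35.7% lower and 37.4% higher at 0.5 kPa, and 35.9% and 37.6% at 12 kPa. Lower by more than 2-fold were 2.86% and 2.22% of all genes, so few or none in such short lists is near these shares. At 0.5 kPa 6 of the 14 were lower and 3 higher by more than 1.1-fold in Srf-knockdown than in control cells, and at 12 kPa 8 were lower and 2 higher, with median log2 ratios of -0.06 and -0.15. Of 7 genes above the minimum whose products modify actin, 4 were lower and 3 higher by more than 1.1-fold at 0.5 kPa, and 5 were lower and 1 higher at 12 kPa, with none past 2-fold. Nat6, which acetylates the N terminus of actin, was higher after knockdown, at 16.4 and 18.1 FPKM against 8.81 and 10.2 FPKM. Setd3, which methylates a histidine of actin, stood at 46.2 and 71.3 FPKM in control and at 52.7 and 46.6 FPKM in knockdown cells. Of 10 genes above the minimum whose products bind actin monomers, 5 were lower and 2 higher by more than 1.1-fold at each stiffness. In this group only Dstn, which severs and depolymerizes filaments, passed 2-fold, at 135 and 126 FPKM against 323 and 311 FPKM in control. Among the 6 genes above the minimum that encode Srf and its cofactors, only Srf passed 2-fold.

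**Figure D5:**
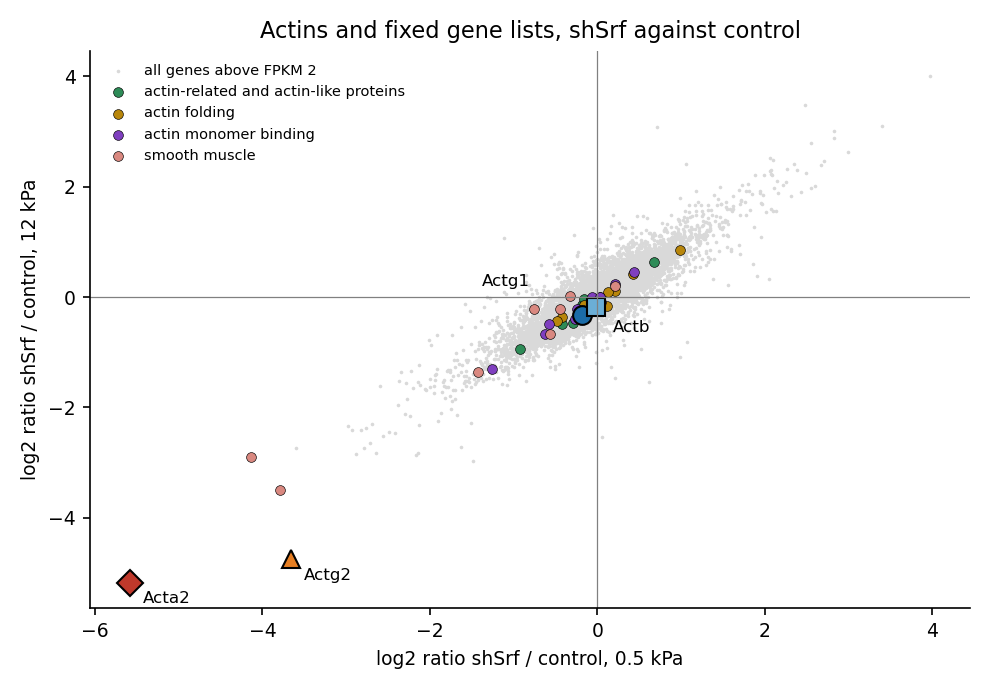
The log2 ratio of FPKM in Srf-knockdown to control cells at 0.5 kPa (x axis) and 12 kPa (y axis) for all genes above an FPKM of 2 (grey), 4 lists of genes (colours) and the actins (large markers). Acta2 lies at -5.58 and -5.17, apart from the grey cloud, Actg2 at -3.66 and -4.75 although it is below the minimum, and Actb and Actg1 lie within the cloud.

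Markers of muscle were read beside the actins, since Acta1, Acta2, Actc1 and Actg2 are named for muscle types. Summed over 12 smooth muscle markers, the level was 1566 and 1553 FPKM in control and 482 and 517 FPKM after knockdown, so this list moved with Acta2. Of the 8 markers above the minimum, 7 were lower by more than 1.1-fold in knockdown cells at 0.5 kPa and 6 at 12 kPa, with 3 lower by more than 2-fold and 1 marker higher at each stiffness. Of all genes, 35.7% and 35.9% were lower by more than 1.1-fold and 2.86% and 2.22% by more than 2-fold. The 3 past 2-fold were Tagln, which binds and bundles actin filaments, Myl9, the regulatory light chain of smooth muscle myosin, and Tpm2, a tropomyosin. The median log2 ratios of the 8 were -0.66 and -0.45. In knockdown cells 5 of the 8 were higher on the hard than on the soft matrix and none was lower, beside 17.6% of all genes that were higher. Levels in control differed widely among the smooth muscle markers, with Cnn1 at 95 and 76.1 FPKM and Smtn at 37.2 and 39.7 FPKM. Myh11, the smooth muscle myosin heavy chain, stood at 0.998 and 1.09 FPKM in control and at 0.210 and 0.227 FPKM after knockdown. Its activator Myocd stood at 0 and 0.0125 FPKM in control. The summed FPKM of 11 skeletal muscle markers stayed between 6.97 and 11.2 and that of 11 cardiac markers between 16.5 and 19.2. Members of both lists moved both ways under these sums. Those given next all lay below the minimum, and no counting interval was made for them. Tnnt3 went from 5.09 and 6.02 FPKM to 1.01 and 1.04 FPKM with the knockdown, and Mylpf from 1.25 and 4.56 to 6.62 and 5.30. Nkx2-5 went from 0.622 and 0.626 FPKM to 0.101 and 0.242 FPKM, and Gata4 from 2.34 and 1.30 to 3.64 and 3.38. Myod1, Myf5, Myf6 and Pax7 were at or near 0 in all libraries. The summed FPKM of 10 fibroblast markers was between 2477 and 2665, most of it from the collagen gene Col3a1 (1584 to 1908 FPKM), but its members moved both ways. Of the 8 above the minimum, 3 were higher and 3 lower by more than 1.1-fold after knockdown at 0.5 kPa, and 4 were higher and 3 lower at 12 kPa. Postn, which encodes the matrix protein periostin, was lower together with Acta2, at 30.2 and 36.8 FPKM against 188 and 259 FPKM in control. Dcn, which encodes the proteoglycan decorin, was higher, at 26.9 and 26.2 FPKM against 9.22 and 8.62 FPKM. The part of any other cell type in the Acta2 level was not tested.

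The genes with the profile nearest to each actin over the 4 libraries were found by the Euclidean distance between log2 FPKM values centred on their mean. Only the 10489 genes above the minimum were searched, which leaves out Cnn1 and Actg2, whose FPKM also fell steeply with the knockdown. Among the genes searched, the nearest to Acta2 were Myl9 at a distance of 1.73, Tagln at 1.91 and Rhox13 at 2.23, and none lay within 1. Myl9 went from 346 and 382 FPKM to 25.1 and 33.7 FPKM with the knockdown, and Tagln from 298 and 242 FPKM to 16.9 and 32.6 FPKM. The cytoplasmic actins had many neighbours, with 326 genes within 0.1 of Actb and 336 within 0.1 of Actg1. The nearest to Actb were Psmd12, Nap1l1 and Cbx3 (0.0191, 0.0213 and 0.0223), and the nearest to Actg1 were Impact, Cep19 and Myl6 (0.0099, 0.0136 and 0.0163). With 4 libraries, such a distance is a description of these libraries only.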

How the data were processed

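The authors trimmed single-end reads with cutadapt 1.9.1, mapped them to mm10 with TopHat2 2.1.0, Bowtie2 2.2.8 and the GENCODE version M14 annotation, kept reads with a MAPQ of at least 20 and calculated expression with Cufflinks 2.2.1. The deposited values are FPKM, which the paper's methods call RPKM. They were used as deposited, without rescaling or pseudocount. RNA was sequenced from stranded libraries. The read length is not given in the sources used here.

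Each library listed 21997 rows, and 63 symbols listed more than once (135 rows) were left out. Following the study's methods, the minimum was an FPKM above 2 in every library and the threshold 1.1-fold. The thresholds of 1.5 and 2-fold, other scalings and pseudocounts were alternatives.

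Library depth comes from low values (FPKM below 0.1), as the commonest ratio between libraries and the value of 1 read on single transcripts longer than 1000 nucleotides, with 200 nucleotides taken off the length. Reads of a gene are FPKM times such a length (GENCODE M1) times depth. Counting intervals are 95% Poisson or Clopper-Pearson intervals of rounded reads and cover counting error only. Recovery of depth and ratios was run on simulated data made with the same annotation and the same 200 nucleotides taken off. It therefore cannot check the transcript lengths, this offset or the annotation. Coding sequences were aligned in pairs with Biopython, and transcript windows were matched on both strands of NCBIM37.

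The actins and gene lists were chosen with earlier results of these data known. Named genes are the actins, Srf, Gapdh, list members past 2-fold at both stiffnesses, defining markers and the 3 nearest profiles of each actin above the minimum. Msi1, Lmod1, Lum and Ryr2 also passed 2-fold at both stiffnesses, but lay below the minimum and are not described. Actr2, Actr3, Actr5, Nat6, Setd3, Pax6, Cdh2, Vim, Col3a1, Smtn, Mylpf and Gata4 were named outside this rule, after their values were seen. Gene positions and promoters are those of RefSeq on GRCm38.p6. Python 3.11.15, numpy 2.4.6, pandas 2.3.3, scipy 1.17.1, matplotlib 3.10.9 and Biopython 1.88 were used.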

Additional observations from a re-analysis of the deposited data

Results flagged for a closer look

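For 3 actins the log2 ratio of 12 to 0.5 kPa was listed with opposite signs in control and knockdown cells. All 3 control ratios were smaller than their counting errors, so the sign in control cells is not settled for any of them. These differences were not tested, for want of replicates, and in control cells all 3 stayed within 1.1-fold. The log2 ratio of 12 to 0.5 kPa in Srf-knockdown minus that in control cells was -0.17 for Actb (0.0027 in control and -0.17 in knockdown cells), with a counting error of 0.0078. The control value of Actb was -0.00036 with centring on the median and -0.0016 with centring within bins of GC content, so that its sign turned with these settings. The difference was -0.15 for Actg1 (0.0039 and -0.15), with a counting error of 0.0070. It was -1.09 for Actg2 (0.09 and -1.01), with a counting error of 0.40, and Actg2 rests on 34.8 and 23.9 estimated reads in knockdown cells. Acta2 was listed with the same sign in both populations, and its difference was 0.41 (0.0048 and 0.41), with a counting error of 0.084.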

How the results depend on the processing

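No paired analysis was possible because there were no replicates. The ratios of Actg1, Actb, Acta2, Actg2 and total actin kept their side of 1.1-fold with a pseudocount of 0.1 or 1, scaling to the 75th percentile, centring on the median and division by Gapdh, and so did those of Actg1, Actb and Acta2 after centring within 50 bins of GC content, an alternative chosen after seeing the data (GC known for 91.2% of genes). Over these settings the log2 ratio of Srf-knockdown to control cells for Acta2 lay between -5.69 and -5.38 at 0.5 kPa and between -5.28 and -5.02 at 12 kPa. That for Actg2 lay between -3.77 and -2.51 and between -4.86 and -2.92, and its ratio of 12 to 0.5 kPa in knockdown cells lay between -1.02 and -0.33, where a pseudocount of 1 gave the smallest change by construction, since its FPKM was below 1. Actb at 0.5 kPa lay between -0.13 and -0.02, closest to 1.1-fold with division by Gapdh. The same division moved Actg1 at 0.5 kPa from -0.18 to -0.29, Actb at 12 kPa from -0.19 to -0.29 and total actin at 0.5 kPa from -0.19 to -0.30. With a threshold of 1.5 or 2-fold, total actin (log2 ratios of -0.19 at 0.5 kPa, -0.35 at 12 kPa and -0.16 between the stiffnesses in knockdown cells) was within the threshold. So was Actg1 in the same comparisons, and Actb in those where it had passed 1.1-fold. The rise of Acta2 between the stiffnesses in knockdown cells (0.41) was within these thresholds too. The share of muscle actins was 5.45%, 5.46%, 0.138% and 0.194% of actin reads, with FPKM multiplied by transcript length (control at 0.5 and 12 kPa, then knockdown), 5.78%, 5.79% and 0.138% when the denominator and the muscle actins were limited to those above the minimum, for the first 3 of these libraries, and 0.0515%, 0.0519%, 0.00108% and 0.00137% of all FPKM. Depth limits Acta1 and Actc1, which had at most 18.5 and 3.0 estimated reads.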
